A study of Mus musculus with 14 samples.

Results

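The genes described are 10 acid-base genes of the renal intercalated cell, chosen by symbol: Atp6v1b1, Atp6v1c2, Atp6v1g3, Atp6v0a4, Atp6v0d2, Slc4a1, Slc26a4, Rhbg, Aqp6 and Foxi1. All 10 were among the 23682 genes present in both deposited tables, and all 10 passed the filter on low counts and were tested. They were followed through bulk RNA sequencing of whole kidneys from 14 mice. In 5 kidneys of i-TERTci mice (actin-rtTA and TetOp-TERTci transgenes, each heterozygous) the animals had received GSK2830371, which blocks the phosphatase WIP1 (gene Ppm1d). In 5 further i-TERTci kidneys the DMSO vehicle had been given. The 4 control mice carried actin-rtTA alone, and no injection is recorded for them in their titles.

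All 3 groups drank doxycycline, which in i-TERTci mice switches on a catalytically inactive telomerase reverse transcriptase in all tissues and leads to collapsing glomerulopathy, a proteinuric glomerular disease. The transgene is therefore not restricted to any renal cell type. Daily intraperitoneal injections began at about day 15, when urinary protein exceeded 10 mg/mL. Kidneys were taken after 28 to 49 days of doxycycline in the GSK2830371 group, 29 to 38 days in the DMSO group and 30 days in the controls. The i-TERTci mice were adults when induced. Strain is not given in the sources used here.

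Intercalated cells lie among the principal cells of the connecting tubule and collecting duct and adjust the acid content of urine. Type A cells secrete protons through a vacuolar H+-ATPase (V-ATPase) in the apical membrane and return bicarbonate to the blood through the anion exchanger AE1, while type B cells secrete bicarbonate through pendrin. The V-ATPase couples a cytosolic V1 sector, which splits ATP, to a membrane V0 sector, which carries protons, and several of its subunits exist as a broad isoform and as an isoform enriched in intercalated cells. The forkhead transcription factor FOXI1 is required in mice for intercalated cells to form and activates several of these genes.

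Because FOXI1 is a forkhead factor, the 250 bases before the RefSeq start (GRCm38.p6) were searched for the forkhead core TGTTTA on both strands. Windows were available for 7 of the 10 genes, namely Atp6v1b1, Atp6v0a4, Atp6v1c2, Atp6v1g3, Slc26a4, Foxi1 and Aqp6. The core was present in 1 of these 7 windows, that of Atp6v1b1, against 12.0% of all 32851 windows in the table. A match is only a run of letters and not a shown binding site. The windows of Atp6v1b1, Foxi1 and Atp6v0a4 are printed 5′ to 3′ to show the 1 window with the core beside that of the gene for FOXI1 itself and that of Atp6v0a4, the 1 gene higher with GSK2830371 than in controls, with the matched core in capitals. They lie at chr6:83742767-83743016 on the plus strand, at chr11:34208090-34208339 on the minus strand and at chr6:38124587-38124836 on the minus strand.
Atp6v1b1: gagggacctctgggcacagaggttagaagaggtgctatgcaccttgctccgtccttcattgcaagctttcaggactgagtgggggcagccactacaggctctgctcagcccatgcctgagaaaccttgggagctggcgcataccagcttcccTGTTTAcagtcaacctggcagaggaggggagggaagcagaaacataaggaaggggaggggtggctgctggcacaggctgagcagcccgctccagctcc
Foxi1: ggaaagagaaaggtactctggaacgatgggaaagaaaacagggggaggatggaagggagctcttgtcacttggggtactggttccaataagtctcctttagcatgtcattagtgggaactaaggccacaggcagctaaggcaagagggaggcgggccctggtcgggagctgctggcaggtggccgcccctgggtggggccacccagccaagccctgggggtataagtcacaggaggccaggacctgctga
Atp6v0a4: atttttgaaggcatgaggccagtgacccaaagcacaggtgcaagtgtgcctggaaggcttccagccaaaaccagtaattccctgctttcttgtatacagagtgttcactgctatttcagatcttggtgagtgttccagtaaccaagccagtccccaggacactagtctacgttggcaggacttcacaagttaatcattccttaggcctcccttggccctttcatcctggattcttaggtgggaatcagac

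Depth was 48.4 M to 49.4 M gene reads in GSK2830371 libraries, 47.2 M to 48.8 M in DMSO libraries and 48.5 M to 64.6 M in control libraries. Mitochondrial genes took 5.07% to 8.35%, 4.95% to 9.52% and 14.4% to 24.2% of those reads in the same order. Xist reads exceeded those of the Y-linked gene Ddx3y in 3 of 5 GSK2830371, 2 of 5 DMSO and all 4 control libraries, so genotype and sex are partly confounded. The Xist-positive GSK2830371 libraries were all taken at 49 days. Tert, the gene of the transgene's product, averaged 1097 with GSK2830371, 1535 with DMSO and 146 in controls (log2 change 2.41 and 3.24 against control). Values are normalised read counts, that is reads divided by the library's size factor. In bulk tissue, fewer intercalated cells and less RNA per cell cannot be told apart.

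Of the 10 acid-base genes, 8 were lower in DMSO-treated i-TERTci kidneys than in controls (adjusted p below 0.05), none was higher, and Atp6v1g3 and Atp6v0a4 did not pass. Among all 18810 genes tested, 23.1% were called lower and 25.2% higher in that comparison. The median log2 change over the 10 genes was -1.54, against 0.03 over all genes tested. The libraries of the groups did not overlap for 8 of the 10 genes, all lower with DMSO, against 18.8% of all genes lower without overlap. In GSK2830371 kidneys 5 of the 10 were lower and 1 was higher than in controls, where 22.1% and 24.3% of all genes were called. For 5 genes all GSK2830371 libraries lay below all controls (19.6% of all genes), and for Atp6v0a4 all lay above (20.8% of all genes). The median over the 10 genes was -0.79, against 0.01 over all genes. The plot of normalised read counts by kidney shows these values.

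**Figure D1:**
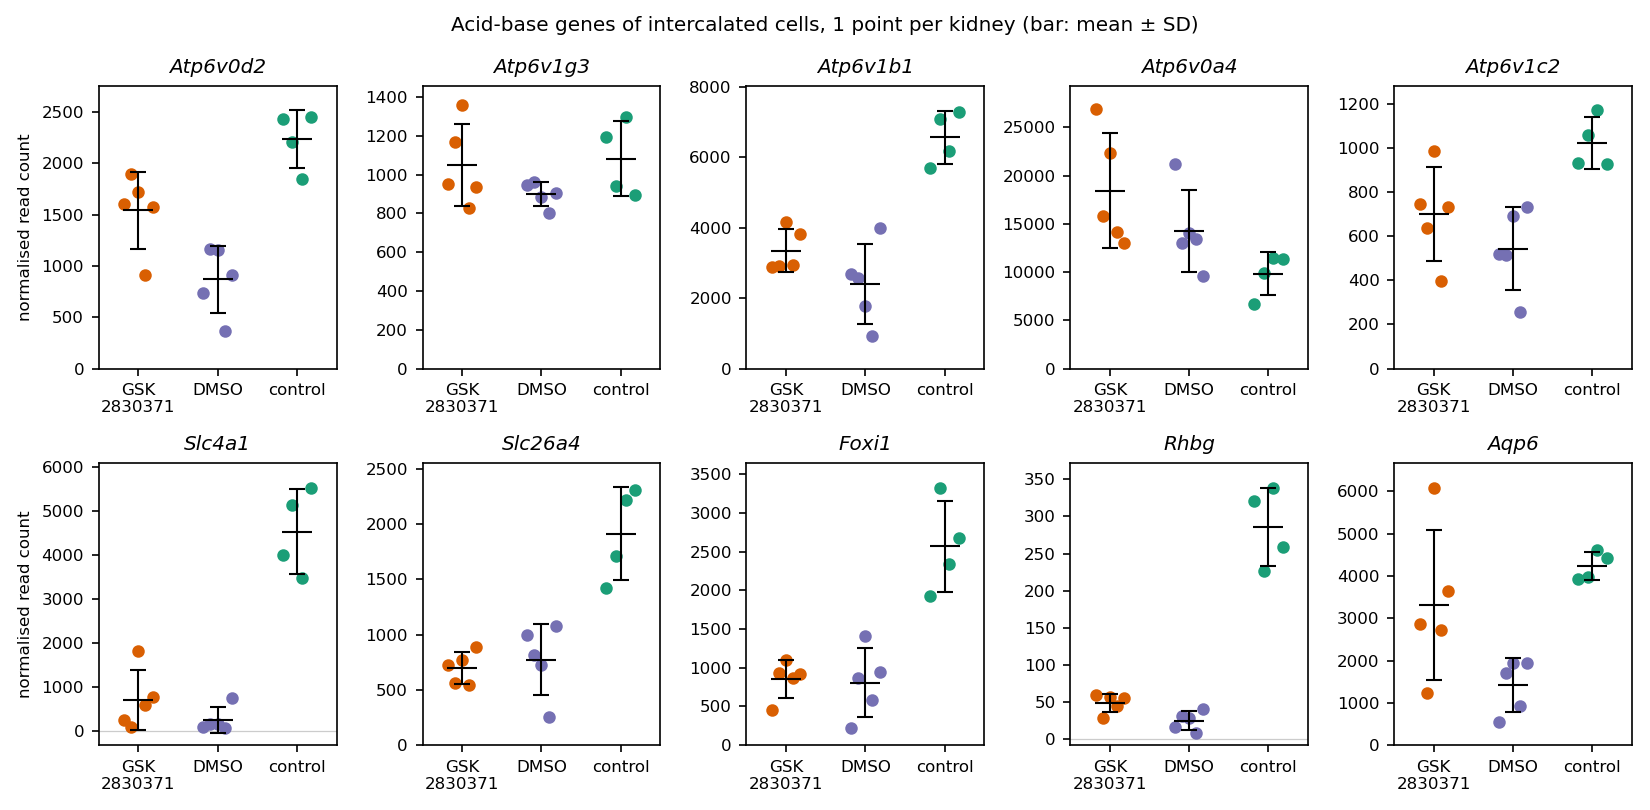
Normalised read count (y axis) of each of the 10 genes in 5 GSK2830371, 5 DMSO and 4 control kidneys, 1 point per kidney, with the group mean ± SD as bars. Slc4a1, Rhbg, Foxi1, Slc26a4 and Atp6v1b1 lie below every control in all i-TERTci kidneys, while all GSK2830371 kidneys lie above every control for Atp6v0a4.

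Atp6v1b1, Atp6v1c2 and Atp6v1g3 encode cytosolic V1 subunits of the proton pump. Atp6v1b1 (ENSMUSG00000006269, chr6:83742990-83758855 on the plus strand of GRCm38) encodes B1, the kidney and inner ear form of the subunit pair that forms the ATP-splitting head, and its human counterpart is mutated in distal renal tubular acidosis with deafness. Its counts were 2875, 2925, 4170.2, 2947 and 3831 in GSK2830371 kidneys, 2677, 2578, 1785, 929 and 4003 in DMSO kidneys and 5697, 7097, 6188 and 7304 in controls. Every i-TERTci kidney lay below every control, and the DMSO kidneys were the more scattered of the treated groups. Atp6v1b1 fell 3.04-fold with DMSO against control (log2 change -1.60, SE 0.30, adjusted p = 0.000557) and 1.98-fold with GSK2830371 against control (-0.98, SE 0.30, adjusted p = 0.0151). Scaled to all reads, the GSK2830371 call was lost (-0.65, adjusted p = 0.138), and among Xist-positive libraries the change with DMSO was -1.02.

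Atp6v1c2 (ENSMUSG00000020566, chr12:17284721-17329359 on the minus strand of GRCm38) encodes an isoform of subunit C, which links the head to the membrane sector. It had 748, 639.7, 986, 398 and 734 normalised reads in GSK2830371 kidneys, 522, 516, 691, 259 and 735 in DMSO kidneys and 933, 1062, 1176 and 931 in controls. All DMSO kidneys were below the controls, and 1 GSK2830371 kidney reached their range. Atp6v1c2 fell with DMSO (-0.99, SE 0.28, adjusted p = 0.00947), and its difference between GSK2830371 and control kidneys did not pass (-0.60, SE 0.28, adjusted p = 0.0947). The DMSO call was lost among Xist-positive libraries (-0.72, adjusted p = 0.0904) and with scaling to all reads (-0.67, adjusted p = 0.104). The GSK2830371 difference passed without DMSO replicate 4 (adjusted p = 0.0356) or without GSK2830371 replicate 3 (adjusted p = 0.0484). Its exons share 50 bases with Pdia6 on the opposite strand, and whether counting used strand is not given in the sources used here.

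Atp6v1g3 (ENSMUSG00000026394, chr1:138273738-138289462 on the plus strand of GRCm38) encodes the kidney form of subunit G, part of the peripheral stalk. Counts were 953, 1170.1, 1359.5, 827 and 936 with GSK2830371, 944, 963, 882, 801 and 904 with DMSO and 1194, 943, 1295 and 896 in controls. The 3 groups overlapped. Atp6v1g3 did not pass with DMSO against control (-0.25, 95% interval -0.60 to 0.10, adjusted p = 0.218) or with GSK2830371 against control (-0.05, -0.40 to 0.30, adjusted p = 0.824). Scaled to all reads, these differences changed sign (0.07 with DMSO and 0.28 with GSK2830371) and did not pass.

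Atp6v0a4 and Atp6v0d2 encode subunits of the membrane sector and differed in direction. Atp6v0a4 (ENSMUSG00000038600, chr6:38048483-38124586 on the minus strand of GRCm38) encodes a4, the form of the proton-carrying a subunit found in intercalated cells and also in the proximal tubule, and its human counterpart is mutated in distal renal tubular acidosis. It had 26870.3, 15815, 22353, 14126 and 13012 normalised reads in GSK2830371 kidneys, 21159.9, 12971, 14009, 13394 and 9577 in DMSO kidneys and 6661, 9906, 11415 and 11382 in controls. All GSK2830371 kidneys and 4 of 5 DMSO kidneys exceeded the highest control. Atp6v0a4 rose 1.84-fold with GSK2830371 against control (0.88, SE 0.26, adjusted p = 0.0112), and this call was lost at 31 days or fewer (0.97, adjusted p = 0.0538). With DMSO against control it did not pass (0.52, SE 0.26, adjusted p = 0.109), but it did without DMSO replicate 5 (0.65, adjusted p = 0.0486) and with scaling to all reads (0.84, adjusted p = 0.00559). The exons of Atp6v0a4 share 259 bases with D630045J12Rik on the same strand. Tmem213, on the opposite strand and sharing 62 exonic bases with Atp6v0a4, moved the other way: it averaged 2144 with GSK2830371, 1807 with DMSO and 4875 in controls.

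Atp6v0d2 (ENSMUSG00000028238, chr4:19876841-19922605 on the minus strand of GRCm38) encodes d2, a subunit of the central stalk that is also abundant in osteoclasts and some macrophages. Its counts were 1607, 1892, 1716, 911 and 1573 in GSK2830371 kidneys, 736, 1164, 1154, 369.9 and 913 in DMSO kidneys and 2431, 2212, 1849 and 2448 in controls. Of the GSK2830371 kidneys, 4 lay above every DMSO kidney, and 1 reached the control range. It fell 2.76-fold with DMSO against control (-1.47, SE 0.29, adjusted p = 0.000839) and did not pass with GSK2830371 against control (-0.57, SE 0.29, adjusted p = 0.122), a difference that passed without DMSO replicate 4 (adjusted p = 0.0337). Over 11 osteoclast and macrophage markers, the summed level ranged from 11174 to 31737 with GSK2830371, 11071 to 29749.9 with DMSO and 8932 to 11103 in controls, and none was at 0 in all libraries of a group. In DMSO against control 7 of the 11 rose and 1 fell, where 25.2% of all genes were called higher and 23.1% lower. The risers included the protease gene Mmp9 (3.89) and the lysozyme gene Lyz2 (2.54), and the 1 that fell was the receptor gene Csf1r (-0.86, adjusted p = 0.0327 by limma). The macrophage genes Cd68 (1.04, adjusted p = 0.107) and Adgre1 (0.85, adjusted p = 0.172) did not pass. With GSK2830371 against control 6 of the 11 rose and 0 fell, where 24.3% and 22.1% of all genes were called. Calcr, the calcitonin receptor gene, rose with DMSO (2.03), as did the cell fusion gene Dcstamp (2.44). Dcstamp was near the floor, at a mean of 26.7 normalised reads with DMSO and 4.13 in controls. The part of macrophages in the Atp6v0d2 values was not tested.

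The ratio of the kidney-enriched isoform to the broad isoform of the same subunit within a kidney does not depend on scaling between libraries. For 5 pairs in 3 comparisons, 15 exact two-sided permutation tests were run in all. For subunit B, Atp6v1b1 stood at 0.137, 0.181, 0.298, 0.195 and 0.310 of Atp6v1b2 in GSK2830371 kidneys, 0.111, 0.205, 0.105, 0.039 and 0.302 in DMSO kidneys and 0.515, 0.507, 0.462 and 0.497 in controls. The ratio was lower in every i-TERTci kidney than in any control. The mean log2 ratio was -3.02 ± 1.12 (SD, n = 5) with DMSO and -1.02 ± 0.07 (SD, n = 4) in controls (exact permutation p = 0.0159, the smallest this design allows, adjusted p = 0.0340). With GSK2830371 it was -2.23 ± 0.50 (SD, n = 5), also with an exact p = 0.0159 against control (adjusted p = 0.0340).

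The ratio of Atp6v1g3 to Atp6v1g1 was lower by 1.33 on the log2 scale with DMSO than in controls and by 0.97 with GSK2830371 (exact permutation p = 0.0159, adjusted p = 0.0340, for each). Atp6v1g1 itself, the broad G subunit, rose with DMSO (1.07) and with GSK2830371 (0.92). For subunit d, the ratio of Atp6v0d2 to Atp6v0d1 was lower by 1.22 with DMSO than in controls (exact p = 0.0159, adjusted p = 0.0340), and with GSK2830371 the difference of -0.34 did not pass (exact p = 0.238, adjusted p = 0.255). The ratio of Atp6v1c2 to Atp6v1c1 differed by -1.03 with DMSO (exact p = 0.0476, adjusted p = 0.0794) and by -0.67 with GSK2830371 (exact p = 0.0317, adjusted p = 0.0595) and did not pass after adjustment. Subunit a, whose a4 isoform is also found in the proximal tubule, went the other way. Atp6v0a4 stood at 6.07, 3.25, 7.58, 4.45 and 3.57 times Atp6v0a1 with GSK2830371, 5.73, 3.60, 2.94, 2.73 and 3.17 times with DMSO and 0.791, 1.29, 2.47 and 1.38 times in controls, with no overlap between i-TERTci and control kidneys (exact p = 0.0159, adjusted p = 0.0340, for each treatment). The broad Atp6v0a1 fell with both treatments (-0.91 with GSK2830371 and -0.84 with DMSO). None of the 5 ratios passed between GSK2830371 and DMSO kidneys (exact p from 0.103 to 0.516). The difference in the subunit B ratio there was 0.80, and among Xist-positive libraries it was -0.18. Leaving out any 1 of the 14 libraries ended every adjusted call, since fewer libraries raise the smallest p or the adjustment over the 15 tests.

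**Figure D2:**
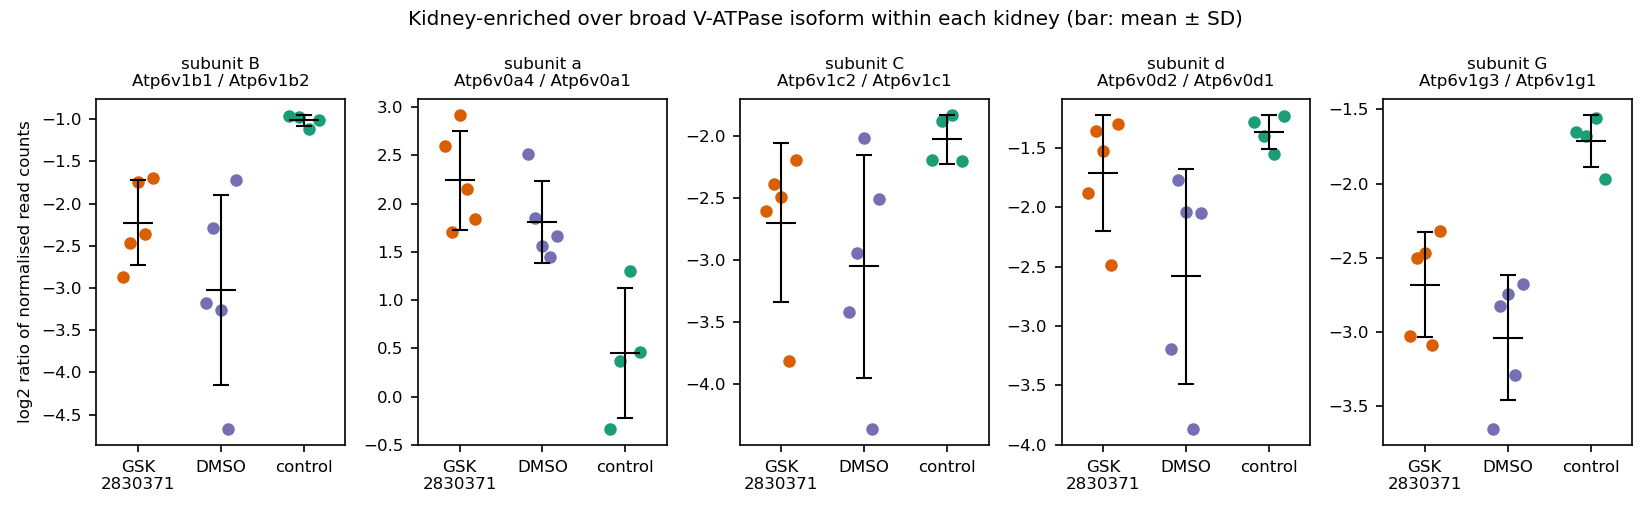
Log2 ratio (y axis) of the normalised read count of the kidney-enriched isoform to that of the broad isoform for 5 V-ATPase subunits. Each point is 1 kidney, with group mean ± SD as bars, in 5 GSK2830371, 5 DMSO and 4 control kidneys. For subunits B and G every i-TERTci kidney lies below the controls, and for subunit a every one lies above.

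Slc4a1 (ENSMUSG00000006574, chr11:102348824-102366203 on the minus strand of GRCm38) encodes the chloride-bicarbonate exchanger AE1, in the basolateral membrane of type A cells and, as band 3, in the red cell membrane. Its counts were 239, 91.9, 1813, 588 and 760.2 in GSK2830371 kidneys, 85.8, 159, 157, 48.6 and 751 in DMSO kidneys and 3979, 5125, 3468 and 5523 in controls. Every i-TERTci kidney lay below every control, and single kidneys stood far above the others of their group. The highest, GSK2830371 replicate 3, had 1813, against 3468 in the lowest control. Slc4a1 fell 29.2-fold with DMSO against control (-4.87, SE 0.81, adjusted p = 0.000341) and 9.91-fold with GSK2830371 against control (-3.31, SE 0.81, adjusted p = 0.00493). The size depended on the model: edgeR gave 18.6-fold with DMSO (-4.22) and 6.43-fold with GSK2830371 (-2.68), and DESeq2 gave 18.9-fold (-4.24) and 6.50-fold (-2.70). With DMSO it was 12.8-fold among Xist-positive libraries (-3.68, adjusted p = 0.0433 by limma) and 18.9-fold with Xist status as a covariate (-4.24).

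Red cell genes were read beside Slc4a1. The summed level of 10 erythroid genes ranged from 3448 to 16279 with GSK2830371, 537 to 40818 with DMSO and 41987 to 74108 in controls. Of these 10 genes, 2 fell with DMSO and 2 with GSK2830371, where 23.1% and 22.1% of all genes were called lower. The beta globin gene Hbb-bs did not pass (-2.37 with DMSO against control, adjusted p = 0.0811). Hbb-bt (0.68) and Ank1 (0.26) did not pass either, with estimates above those of controls. The alpha globin gene Hba-a1 fell with DMSO (-3.95, adjusted p = 0.00571), and Epb42, which encodes a red cell membrane protein bound to band 3, fell as well (-1.73, adjusted p = 0.00563). Hba-a1 and Hba-a2 are near-identical copies whose reads may have been divided unevenly. Hba-a2 had no reads in DMSO replicate 2, and no listed gene was at 0 in all libraries of a group. DMSO replicate 1 had an erythroid sum of 40818, and its Slc4a1 count was 85.8, against 41987 and 3468 in the control with the lowest sum. The part of red cells in the Slc4a1 difference was not tested.

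**Figure D3:**
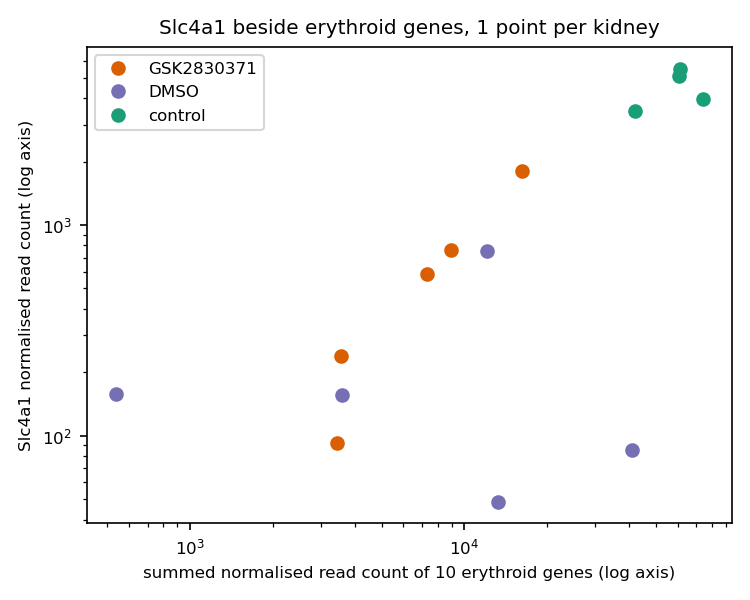
Slc4a1 normalised read count (y axis, log) against the summed normalised read count of 10 erythroid genes (x axis, log), 1 point per kidney in the 3 groups. The controls lie at the upper right, and DMSO replicate 1 has an erythroid sum of 40818 with an Slc4a1 count of 85.8.

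Slc26a4 (ENSMUSG00000020651, chr12:31519827-31559969 on the minus strand of GRCm38) encodes pendrin, the apical anion exchanger of type B cells. It had 728, 565, 766, 540.4 and 885 normalised reads in GSK2830371 kidneys, 995, 817, 723, 252 and 1082 in DMSO kidneys and 1425, 1717, 2216 and 2307 in controls. All i-TERTci kidneys lay below all controls, and the treated groups overlapped. Slc26a4 fell 2.71-fold with DMSO (-1.44, SE 0.34, adjusted p = 0.00271) and 2.74-fold with GSK2830371 (-1.46, SE 0.34, adjusted p = 0.00272), each against control. Within a kidney, Slc26a4 stood at 3.04, 6.09, 0.423, 0.919 and 1.16 times Slc4a1 with GSK2830371, 11.5, 5.12, 4.59, 5.09 and 1.44 times with DMSO and 0.358, 0.335, 0.639 and 0.418 times in controls. Every DMSO kidney had more Slc26a4 than Slc4a1 reads and every control had fewer, while GSK2830371 kidneys fell on both sides. GSK2830371 replicate 3, at 0.423, lay within the control range of 0.335 to 0.639.

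Rhbg (ENSMUSG00000104445, chr3:88242874-88254709 on the minus strand of GRCm38) encodes an ammonia transporter of the basolateral membrane. Rhbg had 59.7, 29.0, 56.2, 44.2 and 55.1 normalised reads with GSK2830371, 15.7, 31.2, 28.7, 8.46 and 40.6 with DMSO and 321, 226, 338 and 259 in controls. It fell 12.4-fold with DMSO (-3.63, SE 0.39, adjusted p = 5.29e-06) and 5.86-fold with GSK2830371 (-2.55, SE 0.39, adjusted p = 0.000115), each against control. All i-TERTci kidneys lay below all controls, and 4 of 5 GSK2830371 kidneys lay above every DMSO kidney. Among Xist-positive libraries Rhbg was 7.72-fold lower with DMSO (-2.95). Its exons share 1190 bases with Gm38392, a gene on the same strand that was not among the genes analysed, so reads of the pair may not be separable.

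Aqp6 (ENSMUSG00000043144, chr15:99601400-99605477 on the plus strand of GRCm38) encodes an anion-permeable aquaporin of intracellular vesicles in type A cells. It had 2874, 1232, 6091, 2726 and 3642 normalised reads in GSK2830371 kidneys, 554, 1712, 1929.8, 923 and 1947 in DMSO kidneys and 3935, 3987, 4618 and 4435 in controls. With DMSO every kidney was below every control, whereas GSK2830371 replicate 3 exceeded all of them. Aqp6 fell 3.33-fold with DMSO (-1.74, SE 0.42, adjusted p = 0.00343), a call lost among Xist-positive libraries (-1.21, adjusted p = 0.0766). Against control, GSK2830371 kidneys did not pass (-0.53, 95% interval -1.42 to 0.36, adjusted p = 0.309).

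Foxi1 (ENSMUSG00000047861, chr11:34204338-34208089 on the minus strand of GRCm38) encodes the forkhead factor itself. It had 449, 935, 1097, 864 and 922 normalised reads with GSK2830371, 216, 867, 1412, 588 and 947 with DMSO and 1931, 3323, 2337 and 2679 in controls. All i-TERTci kidneys lay below all controls. Foxi1 fell 3.69-fold with DMSO (-1.88, SE 0.42, adjusted p = 0.00219) and 3.07-fold with GSK2830371 (-1.62, SE 0.42, adjusted p = 0.00618), each against control. Its call against control held in every alternative tried, as did those of Slc4a1, Slc26a4 and Rhbg.

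Whether the genes returned toward control levels with GSK2830371 was asked by setting GSK2830371 against DMSO kidneys. None of the 10 genes passed the adjusted threshold (adjusted p from 0.994 to 0.999 by limma). Over all 18810 genes limma called 0 (0%), edgeR 0 and DESeq2 1, and 800 (4.25%) had an unadjusted limma p below 0.05. At an unadjusted p below 0.05, 4 of the 10 were higher, against 2.28% of all genes higher. They were Atp6v0d2 (log2 difference 0.90, 95% interval 0.31 to 1.48), Aqp6 (1.20, 0.37 to 2.04), Rhbg (1.08, 0.30 to 1.86) and Atp6v1b1 (0.62, 0.02 to 1.23). The median log2 difference of the 10 genes was 0.51 and that of all genes tested was -0.01. For no gene did the GSK2830371 libraries clear all DMSO libraries, which occurred upward in 0.239% of all genes. In Atp6v0d2, Rhbg and Aqp6, 4 of 5 GSK2830371 kidneys exceeded the highest DMSO kidney.

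Slc26a4 differed by -0.02 (95% interval -0.69 to 0.66) and Foxi1 by 0.26 (-0.59 to 1.11) between GSK2830371 and DMSO kidneys, and in neither did a GSK2830371 kidney exceed the highest DMSO kidney. For Slc4a1 the difference was 1.56 with a wide interval (-0.09 to 3.21), for Atp6v1c2 0.39 (-0.18 to 0.96), for Atp6v0a4 0.36 (-0.15 to 0.88) and for Atp6v1g3 0.20 (-0.13 to 0.53). The difference of 0.90 seen in Atp6v0d2 lay inside the intervals of Foxi1, Slc4a1 and Atp6v1c2 and above those of Slc26a4, Atp6v0a4 and Atp6v1g3. Its own interval (0.31 to 1.48) overlapped all of these intervals, and differences between genes were not tested.

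**Figure D4:**
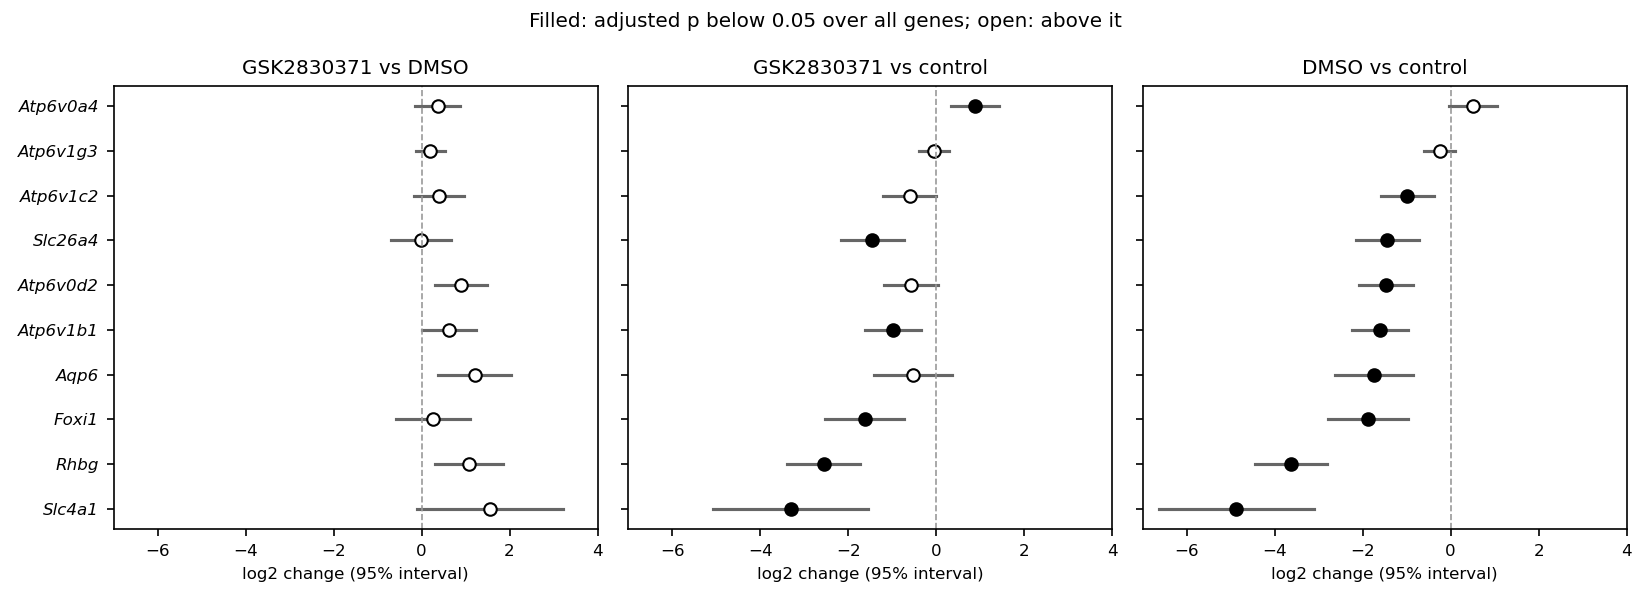
Log2 change (x axis) of the 10 genes in the 3 comparisons, with 95% intervals from limma, filled where the p adjusted over all genes was below 0.05. GSK2830371 minus DMSO lies at 0.90 for Atp6v0d2 and 1.20 for Aqp6 and at -0.02 for Slc26a4, and no point of that comparison is filled.

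Individual kidneys differed within the groups. DMSO replicate 4, the DMSO kidney with the longest course at 38 days, was the lowest of its group for 7 of the 10 genes, and DMSO replicate 5 was the highest for 6. GSK2830371 replicate 3, at 49 days, was the highest of its group for 6 genes. GSK2830371 replicates 4 and 2, also at 49 days, were the lowest of that group for 4 and 3 genes. Averaged over the 10 genes, the log2 difference from the control mean lay between -1.50 and -0.51 in GSK2830371 kidneys and between -2.59 and -1.14 in DMSO kidneys, and the groups overlapped. Without DMSO replicate 4, the GSK2830371 minus DMSO difference was 0.62 for Atp6v0d2, 1.09 for Aqp6, 0.76 for Rhbg and 0.32 for Atp6v1b1. Among Xist-positive libraries (3 with GSK2830371 and 2 with DMSO) it was 0.49, 0.59, 0.23 and 0.05 for these 4 genes in that order, and at 31 days or fewer (2 and 4 libraries) 0.72, 1.25, 1.04 and 0.34. Foxi1 differed by -0.13 at 31 days or fewer. In the GSK2830371 group Aqp6 averaged 3258 at 31 days or fewer and 3349.6 at 49 days, and Atp6v0d2 averaged 1590.1 and 1506.5 in the same order. Days, sex and treatment cannot be fully told apart in these libraries.

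Per kilobase of annotated exon, the order of levels in controls was Atp6v0a4, Aqp6, Atp6v1b1, Foxi1, Slc4a1, Atp6v0d2, Slc26a4, Atp6v1g3, Atp6v1c2 and Rhbg. Normalised reads per kilobase were 1979 ± 449 for Atp6v0a4 and 148 ± 27.0 for Rhbg (SD, n = 4 each). Neighbours in this order overlapped between kidneys, except that Rhbg lay below Atp6v1c2 without overlap. In DMSO kidneys Slc4a1 averaged 49.1 ± 59.2 per kilobase and stood ninth, just above Rhbg at 12.9 ± 6.60 and overlapping with it, while Atp6v0a4 at 2860 ± 853 stood clear of Aqp6 at 583 ± 263 (SD, n = 5 each). In GSK2830371 kidneys the top, Atp6v0a4 at 3707 ± 1195, was likewise clear of Aqp6 at 1367 ± 735 (SD, n = 5 each).

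Other genes of intercalated cells were read from a list of 22. In DMSO against control 11 fell, 2 rose and 9 did not pass, with a median log2 change of -0.79. Among all genes 23.1% were called lower and 25.2% higher there. Bsnd, the chloride channel subunit barttin, which the loop of Henle also makes, fell by 2.80 (adjusted p = 5.27e-05), and Rhcg, the apical ammonia transporter, fell by 2.06 (adjusted p = 0.00216). Insrr, an alkali-sensing receptor of type B cells, fell by 3.14, and Tmem213 fell by 1.45. Spink8, a predicted protease inhibitor gene, rose by 1.94 (adjusted p = 9.66e-05), and the transcription factor gene Tfcp2l1 rose by 0.80 (adjusted p = 0.0108). With GSK2830371 against control 9 fell and 2 rose (median -0.50), where 22.1% and 24.3% of all genes were called. The 2 were again Spink8 (2.10) and Tfcp2l1 (1.25). Between GSK2830371 and DMSO kidneys none passed. The smallest p there belonged to Kit, a receptor gene (0.70), and to the carbonic anhydrase gene Car15 (-0.73), which had 41.0 normalised reads on average with GSK2830371 and 69.3 with DMSO.

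Of 18 broad V-ATPase genes 5 rose, 4 fell and 9 did not pass with DMSO against control, where 25.2% of all genes were called higher and 23.1% lower. The median of the 18 was 0.01. With GSK2830371 against control the counts were also 5 and 4 (median 0.12), where 24.3% and 22.1% of all genes were called. The accessory subunit genes Atp6ap2 (1.58 with DMSO, adjusted p = 1.81e-05) and Atp6ap1 (1.29, adjusted p = 2.96e-05) rose, as did Atp6v1h (1.03), a regulatory V1 subunit. The 4 that fell with DMSO were Atp6v0a1 (-0.84), Atp6v0e2 (-0.79), Atp6v1f (-0.69) and Atp6v1d (-0.55). Atp6v1a, the catalytic A subunit, averaged 22510.2 with GSK2830371, 17843 with DMSO and 18275 in controls, and did not pass in any comparison.

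Genes of principal cells, the neighbours of intercalated cells, were read as well. Of 14 principal cell genes 8 fell, none rose and 6 did not pass with DMSO against control (median -1.19). With GSK2830371 again 8 fell and 6 did not pass (median -1.11). Among all genes 23.1% were called lower and 25.2% higher with DMSO, and 22.1% and 24.3% with GSK2830371. The transcription factor gene Gata3 fell by 2.62 (adjusted p = 1.14e-05), the water channel gene Aqp4 fell by 3.43, the corticosteroid-inactivating enzyme gene Hsd11b2 fell by 2.89 and the sodium channel gene Scnn1b fell by 1.52, each with DMSO. Aqp2, the vasopressin-regulated water channel, averaged 23166 with GSK2830371, 19656 with DMSO and 20206 in controls and did not pass. Aqp3, Scnn1a, Kcnj1, Fxyd4 and St6gal1 did not pass in either comparison with control. Of 12 proximal acid-base and ammonia-producing genes, 5 fell and 1 rose with DMSO against control (median -0.33), and 5 fell and 4 rose with GSK2830371 (median -0.58). The glutamine synthetase gene Glul fell by 1.58 with DMSO and by 0.90 with GSK2830371, Slc13a2, a citrate transporter gene, fell by 1.35 with DMSO, Slc34a1, a phosphate transporter gene, fell by 2.14 and the carbonic anhydrase gene Car14 fell by 1.85. The bicarbonate cotransporter gene Slc4a4 did not pass with DMSO (0.57, adjusted p = 0.0623) and rose with GSK2830371 (0.84, adjusted p = 0.00994). No difference between these lists and the 10 acid-base genes was tested.

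**Figure D5:**
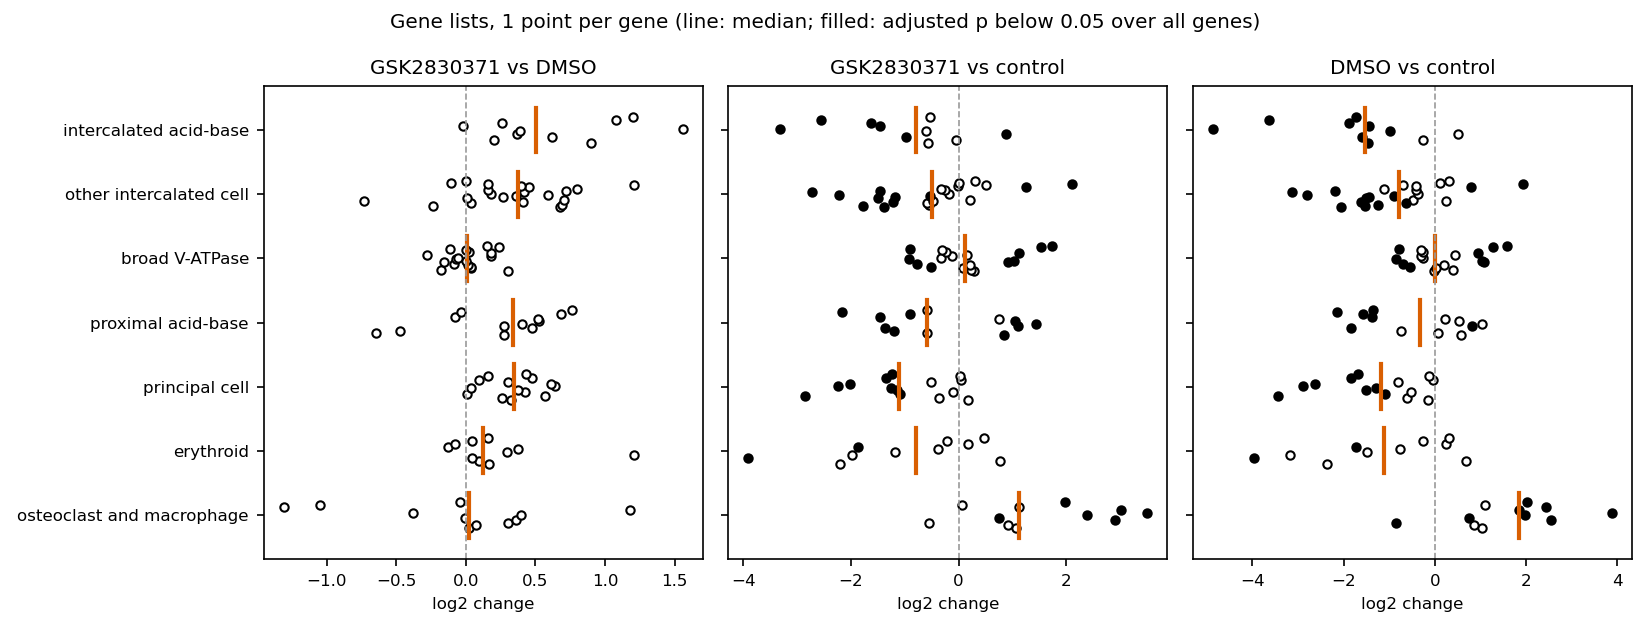
Log2 change (x axis) of each gene of 7 lists in the 3 comparisons, 1 point per gene, with the list median as a line and filled points where the p adjusted over all genes was below 0.05. With DMSO against control the medians were -1.54 for the 10 acid-base genes, -1.19 for principal cell genes and 0.01 for broad V-ATPase genes.

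The genes whose profile over the 14 libraries was most like the mean profile of the 10 acid-base genes were Gm15860, Prkcq, Lrrc56, Letm2, Cd300lg and Irx1. Likeness was the root mean square difference of centred log2 values, and it was 0.23 for Gm15860, the nearest, and 0.26 for Irx1, a nephron patterning factor gene. Of the 10 genes themselves Atp6v1b1 came nearest to their mean profile at 0.28 and Slc4a1 was farthest at 1.55. The median over the 14337 genes compared was 0.89.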

How the data were processed

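Whole-kidney RNA sequencing libraries of 14 mice were grouped by their titles into 3 groups. The authors deposited a signal per gene in 2 tables, labelled as raw counts. In each library the counts had been divided by 1 factor, since every value is a whole multiple of it. Per the submitters' processing notes, FastQC, Trimmomatic, STAR and DESeq2 were used with mm10. No counter or annotation is given in the sources used here.

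Whole reads were recovered for 100.0% of values (tolerance 0.001), and the tables gave 0 differing values for the 4 controls they share over 23682 common genes. Median-of-ratios size factors were computed over the 14 libraries, and limma 3.58.1 (trend, robust, two-sided, Benjamini-Hochberg over all genes, threshold 0.05) was fitted to log2(normalised reads + 1) of the 18810 genes that filterByExpr kept. Fold changes are on that scale. Recovered reads were tested again with edgeR 4.0.16 (quasi-likelihood), DESeq2 1.42.0 and voom in R 4.3.3. With 9079, 8716 and 0 genes called by limma for DMSO against control, GSK2830371 against control and GSK2830371 against DMSO, edgeR called 8892, 8496 and 0. Other alternatives changed scaling, filter, pseudocount, covariates or the libraries used. Overlaps and exon lengths came from GENCODE M21 (96.2% of genes matched by ID), promoter windows from RefSeq. The fits were tested on simulated data.

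Genes, lists and isoform pairs were chosen with earlier results of these data known. Named genes were the 10 genes, their 5 broad isoform partners, the 6 nearest profiles of mean count 50 or more, and, from each other list, its head gene, the 4 smallest p in DMSO against control and the 2 smallest in GSK2830371 against DMSO. Outside this rule, Csf1r, Adgre1, Hbb-bt, Ank1, Tfcp2l1, Atp6v0e2, Atp6v1f, Atp6v1d, Aqp3, Scnn1a, Kcnj1, Fxyd4 and St6gal1 were also named. They went against other named members or did not pass. Each library is taken as 1 mouse. The labels do not say whether litters were shared, so p-values measure only the spread between these libraries.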

Additional observations from a re-analysis of the deposited data

Results flagged for a closer look

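In the DMSO group, the Slc4a1 count of replicate 5, 751 normalised reads, stood far from the other DMSO kidneys (48.6 to 159) by Dixon's gap test. It was the 1 value so marked among 45 combinations of gene and group checked, and chance marks about 1 in 20. The erythroid sum of that library was 12088, within the DMSO range of 537 to 40818. The part of red cells in that value was not tested.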

How the results depend on the processing

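The number of the 10 genes called stayed within 1.5 times its value under every alternative run, at 6 to 9 with DMSO against control, 5 to 8 with GSK2830371 against control and 0 with GSK2830371 against DMSO. With 1 library left out it was 8 to 9, 6 to 8 and 0 in that order. No value past the threshold changed sign. Scaling to all reads, of which mitochondrial genes took more in controls, moved the median of all genes to 0.34 in both comparisons with control, and the calls to 6556 higher and 2495 lower with DMSO (4742 and 4337 with size factors) and to 6537 higher and 2264 lower with GSK2830371 (4568 and 4148). With reads outside the mitochondrial genome the medians were 0.15 and 0.12, with 5303 higher and 3368 lower and 5077 higher and 3287 lower. Beside that median of 0.34, Atp6v0a4 stood at 0.84 with DMSO and Atp6v1c2 at -0.67.

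The isoform ratios passed for 4 of 5 pairs with DMSO against control and 3 of 5 with GSK2830371 against control. With 1 library left out the counts were 0 to 0 in each, and at 31 days or fewer 0 with DMSO, where fewer samples or the adjustment over 15 tests put every p above the threshold. The differences kept their sign when 1 library was left out. The labels do not say whether samples of the same replicate number share more than the number. Of the 13 such pairs, 4 had a correlation of deviations above 0.1 (lowest -0.06, highest 0.34). Pairs of unlike number were not compared, so these values cannot decide whether the samples are paired. With the replicate block 9, 7 and 0 of the 10 genes were called, as Atp6v0a4 passed with DMSO against control (0.64, adjusted p = 0.0427 by limma) and Atp6v1c2 with GSK2830371 against control (-0.68, adjusted p = 0.0130). With only the compared groups in the fit, Atp6v0d2 (-0.55, adjusted p = 0.0378 by limma) and Atp6v1c2 (-0.58, adjusted p = 0.0458) passed with GSK2830371 against control. The lowest group mean was 24.9 normalised reads, for Rhbg with DMSO.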
